A study of Mus musculus with 2 samples.

Results

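The interleukin 17 axis and amphiregulin were followed through the cells of the postischemic mouse kidney with 7 genes, chosen by symbol among the 32285 genes measured: the cytokine genes Il17a and Il17f, the lymphocyte receptor gene Il23r, the receptor chain genes Il17ra and Il17rc, the interleukin 1 receptor gene Il1r1, and Areg. All 7 had UMIs in both libraries. A UMI is a molecular tag that marks 1 captured RNA molecule. Il17a, Il17f and Il23r were read by where they were made, Il17ra, Il17rc and Il1r1 by where they could be received, and Areg in both lymphocytes and macrophages.

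IL-17A and IL-17F are cytokines of gamma-delta T cells, type 17 helper T cells and related innate lymphocytes. They signal through a receptor built from IL-17RA and IL-17RC chains on epithelial and stromal cells, which respond with neutrophil-attracting chemokines and antimicrobial proteins such as lipocalin 2. Interleukin 23, through IL-23R, and interleukin 1, through IL-1R1, sustain type 17 lymphocytes, and IL-1R1 also serves stromal and epithelial cells. Amphiregulin, the product of Areg, is a ligand of the EGF receptor that is shed from the cell surface and is known from type 2 innate lymphoid cells, regulatory T cells and macrophages in injured tissue.

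Both mice were males of 8 to 10 weeks, went through 25 minutes of unilateral renal ischemia and 4 tamoxifen injections of 3 mg per mouse, and were examined on day 14 with the 10X Genomics 3′ kit. The genotype of the first was Cre-, and that of the second was Cdh5-CreERT2 on a Phd1f/f, Phd2f/f, Phd3f/f background (PHDTiEC), in which tamoxifen activates Cre under the endothelial Cdh5 promoter to delete the 3 floxed prolyl hydroxylase genes after the injury. With 1 library of 1 mouse per genotype, no test between the genotypes was possible, and a difference between genotypes cannot be told apart from one between mice, dissociations or libraries. Values are therefore UMIs and CPM (UMIs of the gene per 1000000 UMIs of the cell class) with exact 95% intervals that cover counting error only. A count of 0 is compatible with up to 3 UMIs in the class. UMIs of 1 cell barcode are not independent, so these intervals are too narrow as errors for cells.

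The libraries held 136004367 UMIs (Cre-) and 146758812 UMIs (PHDTiEC), of which 8548 and 9309 barcodes were kept, with medians of 7500 and 7898 UMIs. Egln1, Egln2 and Egln3, the floxed genes Phd2, Phd1 and Phd3, were at 67.1, 44.1 and 25.7 CPM in the 315 endothelial-like barcodes of the Cre- library and at 202, 39.6 and 161 CPM in the 440 of the other. They were thus not lower where deletion is labelled, except for Egln2, whose interval of the ratio ran through 0. A 3′ tag outside a deleted part checks nothing, and which part was deleted was not given in the sources used here, so the second library is called the library labelled PHDTiEC. The libraries shared 28 kept barcodes, which carried 43 of the Il17a UMIs of the Cre- library and 0 of the other. Barcodes with fewer than 100 UMIs, which hold free RNA, had Il17a at 9.74 and 11.7 CPM, and the estimated share of free RNA in lymphoid-like barcodes was 13.9% and 16.2%. It was 7.42% and 6.73% in gamma-delta T-like, 6.54% and 5.94% in CD4 T-like and 3.24% and 2.42% in type 2 innate lymphoid-like barcodes. Neutrophil genes were among the markers of this estimate, and lymphoid subcluster 11 carried them at a summed 16119 and 23078 CPM.

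The promoters of Il17a, Il17f and Il23r, whose RNA lay mostly in lymphoid-like barcodes, are shown. That of Areg, whose RNA lay in both lymphoid and macrophage classes, is shown beside them. Il17a (chr1:20730905-20734496, plus strand) and Il17f (chr1:20777146-20790617, minus strand) are neighbours, with 42.6 kb and 0 protein-coding genes between them. Il23r lies on chr6:67422932-67491855 (minus strand) and Areg on chr5:91139599-91148432 (plus strand), all in GRCm38. The RefSeq start of Il17f lies within the annotated span of the gene. Each line gives the 250 bases before the RefSeq start (GRCm38.p6), 5′ to 3′ on the gene's strand: Il17a chr1:20730655-20730904, Il17f chr1:20784271-20784520, Il23r chr6:67491856-67492105 and Areg chr5:91139349-91139598. Capitals mark AGGTCA on either strand (a half-site bound by nuclear receptors, TGACCT when read on the other strand), TGACGTCA (the cAMP response element) and TATAAA on the gene strand (the TATA box). These motifs were picked after the sequences had been seen.
Il17a: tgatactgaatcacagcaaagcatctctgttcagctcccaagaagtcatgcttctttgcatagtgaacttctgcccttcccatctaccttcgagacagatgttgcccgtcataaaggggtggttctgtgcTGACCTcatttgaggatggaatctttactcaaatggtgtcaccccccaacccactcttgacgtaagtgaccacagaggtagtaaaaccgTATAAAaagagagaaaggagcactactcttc
Il17f: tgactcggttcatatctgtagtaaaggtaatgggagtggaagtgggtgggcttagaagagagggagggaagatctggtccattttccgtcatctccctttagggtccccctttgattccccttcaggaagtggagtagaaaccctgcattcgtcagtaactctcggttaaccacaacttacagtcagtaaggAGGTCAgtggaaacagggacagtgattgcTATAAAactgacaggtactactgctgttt
Il23r: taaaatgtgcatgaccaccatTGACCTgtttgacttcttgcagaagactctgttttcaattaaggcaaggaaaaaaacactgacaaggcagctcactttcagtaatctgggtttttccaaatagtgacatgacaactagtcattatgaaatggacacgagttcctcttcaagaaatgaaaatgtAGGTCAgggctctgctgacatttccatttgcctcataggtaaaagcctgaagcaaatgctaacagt
Areg: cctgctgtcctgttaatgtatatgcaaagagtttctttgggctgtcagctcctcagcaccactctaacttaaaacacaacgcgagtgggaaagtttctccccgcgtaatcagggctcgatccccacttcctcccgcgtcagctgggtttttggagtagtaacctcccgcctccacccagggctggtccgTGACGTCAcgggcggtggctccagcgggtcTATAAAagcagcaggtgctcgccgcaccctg
The half-site stood 120 bases before the start of Il17a on the other strand, 58 bases before that of Il17f, and 66 and 229 bases before that of Il23r, while the Areg window held none. TGACGTCA stood 61 bases before the start of Areg. TATAAA stood 31, 29 and 31 bases before the starts of Il17a, Il17f and Areg. Among 32851 mouse promoter windows of the same length, 14.0% held the half-site, 1.55% the cAMP element and 7.59% TATAAA, so the half-site is common and a match is a description of letters only.

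Il17a was lymphocyte RNA in both kidneys. Of its 3654 UMIs over all kept barcodes, 89.1% (95% interval 88.1 to 90.1) lay in lymphoid-like barcodes, which were 647 of 8548 barcodes in the Cre- library and 762 of 9309 in the other. Il17f (194 UMIs, 88.7% in lymphoid-like barcodes) and Il23r (110 UMIs, 83.6%) were placed alike. The class names rest on marker genes, and neither the members nor the pathway genes took part in the clustering.

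**Figure D1:**
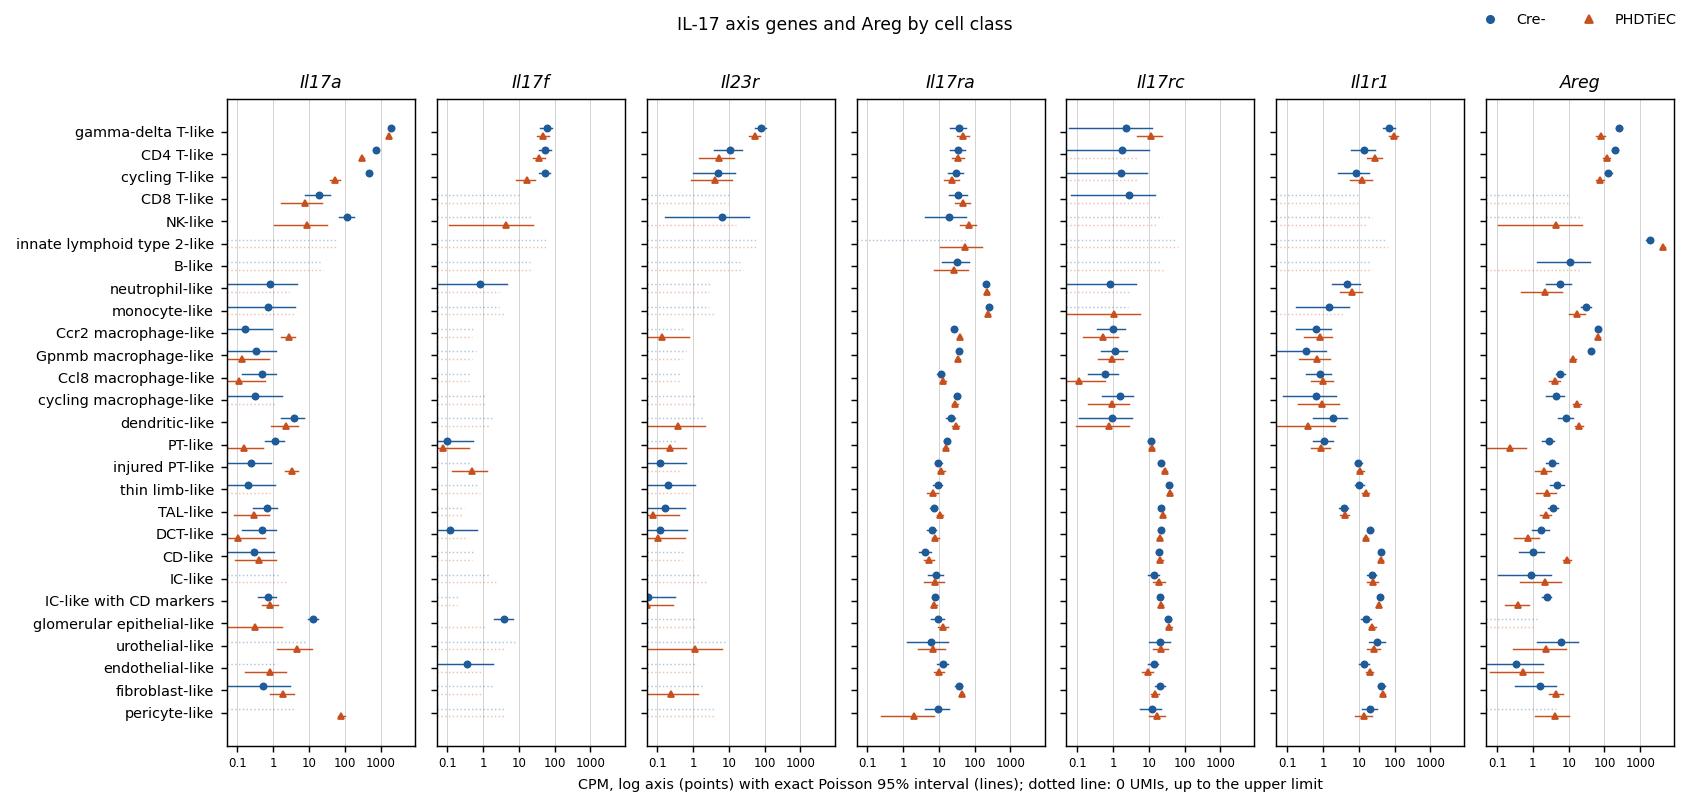
Level of each member in CPM (colour, log scale) by cell class, with the Cre- library and the library labelled PHDTiEC side by side. Il17a, Il17f and Il23r are highest in T-like classes other than CD8 T-like, Il17rc is higher in tubule classes than in leukocytes, Il17ra is highest in the monocyte-like and neutrophil-like classes, and Areg in lymphoid and macrophage classes.

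Gamma-delta T-like barcodes held the largest part of Il17a. They expressed all 6 gamma-delta markers (summed levels of 3001 CPM for Cre- and 3450 CPM for PHDTiEC), and 124 and 191 barcodes were found. Il17a stood at 1981 CPM (872 UMIs, interval 1852 to 2117) in the Cre- library and at 1774 CPM (1098 UMIs, 1670 to 1882) in the library labelled PHDTiEC. The log2 ratio, PHDTiEC over Cre- here and throughout, was -0.16 (-0.29 to -0.03). Without the barcode richest in Il17a of each library it was -0.08 (-0.22 to 0.06), and without the barcodes present in both libraries -0.11 (-0.25 to 0.02), so neither kept clear of 0.

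Il17a was present in 77 of the 124 gamma-delta T-like barcodes (62.1%) and in 110 of the 191 (57.6%), at median depths of 3285 and 3078 UMIs. After each barcode was thinned to 1000 UMIs the shares were 48.8% (39.7 to 58.0) and 41.9% (34.8 to 49.2), and these intervals overlapped. Macrophage-like barcodes, a class that should lack the gene, had Il17a in 0.278% and 0.182% of barcodes at depths of 6616 and 7139 UMIs. The gamma-delta shares were thus far above the level of free RNA.

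Single gamma-delta T-like barcodes differed widely. Those with Il17a held a median of 7 UMIs and at most 112 in the Cre- library, against a median of 5 and at most 85 in the library labelled PHDTiEC, and 9 and 17 barcodes held a single UMI. The 10 richest lymphoid-like barcodes carried 34.1% and 29.3% of all lymphoid Il17a. A few cells with very many transcripts therefore set much of the class level.

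Several variable segments were seen in these barcodes. Trdv4, a delta chain segment used by gamma-delta T cells that make IL-17, had 190 UMIs in 63 barcodes of the Cre- library and 474 UMIs in 94 barcodes of the other. Tcrg-V6, the gamma chain segment that pairs with it, had 31 and 78 UMIs. Trgv2, another gamma segment, had 116 UMIs in 55 barcodes and 189 UMIs in 79 barcodes, more than any other gamma segment named here, while Tcrg-V4 had 9 and 18, Tcrg-V1 had 3 and 19 and Tcrg-V5 had 3 and 8. Tcrg-V7 had 0 UMIs in both. Trdv4 and Tcrg-V6 are among the markers that name the class, so only the other segments are independent of the name.

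In CD4 T-like barcodes (163 and 201), Il17a was lower in the library labelled PHDTiEC. It stood at 764 CPM (428 UMIs, 694 to 840) in the Cre- library and at 303 CPM (225 UMIs, 265 to 346) in the other, a log2 ratio of -1.33 (-1.57 to -1.10), and of -1.34 without the richest barcode of each library. The barcodes with Il17a were 36 (22.1%) and 34 (16.9%), or 15.6% and 10.6% after thinning, and their medians were 7 and 4 UMIs. The share of positive barcodes and the UMIs in each were thus both lower in value, and neither difference was tested. Among these positive barcodes, 31 of 36 and 31 of 34 had the alpha chain gene Trac, 0 and 3 had the delta chain gene Trdc, and 3 and 4 had Foxp3, the regulatory T cell factor.

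Cycling T-like barcodes (58 and 71) showed the widest gap in Il17a among the T-like classes. They held 290 UMIs in 15 barcodes in the Cre- library (479 CPM) and 39 UMIs in 7 barcodes in the library labelled PHDTiEC (53.5 CPM), a log2 ratio of -3.16 (-3.68 to -2.68). Single barcodes carried up to 23.4% and 35.9% of these UMIs, and without the richest of each library the ratio was -3.45. Few barcodes stand behind this value.

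Over all lymphoid-like barcodes Il17a stood at 612 CPM (1791 UMIs) in the Cre- library and 430 CPM (1466 UMIs) in the library labelled PHDTiEC, a log2 ratio of -0.51 (-0.61 to -0.41). When each barcode counted equally the ratio was -0.31. The share of lymphoid-like barcodes with Il17a was nearly equal, 147 of 647 (22.7%) and 167 of 762 (21.9%), so the lower sum went with fewer UMIs per positive barcode, at medians of 8 and 4. The makeup of the lymphoid-like barcodes also differed, with 124 of 647 gamma-delta T-like in the Cre- library and 191 of 762 in the other. In CD8 T-like barcodes 7 and 3 UMIs of Il17a were found, and in type 2 innate lymphoid-like barcodes 0 and 0. NK-like barcodes (50 and 70) stood at 116 CPM (68.9 to 184) and 8.59 CPM (1.04 to 31.0). Lymphoid subcluster 5 was at 289 and 190 CPM of Il17a, and it also carried macrophage markers at a summed 6875 and 7637 CPM. Without lymphoid subclusters 5 and 11 the log2 ratio over lymphoid-like barcodes was -0.55 (-0.66 to -0.45).

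**Figure D2:**
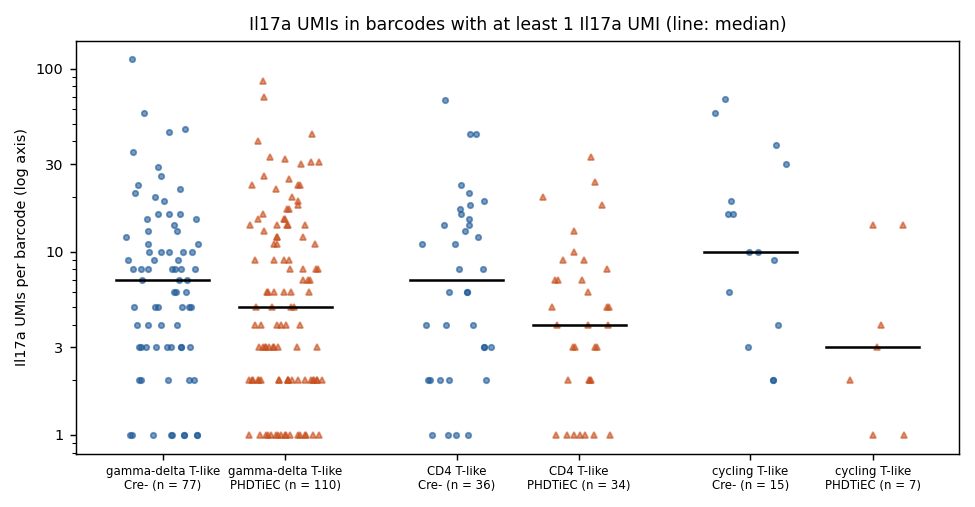
Il17a UMIs in each barcode that had any (log axis), by T-like class and library, 1 point per barcode, with the median marked. Gamma-delta T-like barcodes reach 112 and 85 UMIs, and the medians in CD4 T-like barcodes are 7 (Cre-) and 4 (the library labelled PHDTiEC).

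Outside the lymphoid-like classes, 73 barcodes held 397 Il17a UMIs, and 24 of them, with 3 or more UMIs each, held 345. All 24 also carried at least 3 UMIs of the T cell marker list (lowest 6, median 21.5), whereas 1.46% of the barcodes without Il17a outside these classes did. Their median depth was 20270 UMIs, above the median of lymphoid-like barcodes (3336 and 3410.5). In the pericyte-like class all 79 UMIs, found in the library labelled PHDTiEC, came from 1 barcode. In those 24 barcodes Il17a thus stood beside T cell RNA, and the part of doublets in it was not tested. The others were not examined.

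Il17f was rare and sat where Il17a sat. Gamma-delta T-like barcodes held 26 and 29 UMIs (59.1 and 46.8 CPM), CD4 T-like barcodes 30 and 27 (53.6 and 36.4 CPM) and cycling T-like barcodes 32 and 12 (52.8 and 16.5 CPM). In the Cre- library the intervals of these 3 classes overlapped, and in the library labelled PHDTiEC those of the gamma-delta T-like class (31.4 to 67.3 CPM) and the cycling T-like class (8.50 to 28.7) did not. Over lymphoid-like barcodes the level was 34.9 CPM and 20.5 CPM, a log2 ratio of -0.76 (-1.22 to -0.31), while the gamma-delta ratio of -0.33 ran from -1.15 to 0.49. The positive barcodes were 36 and 29 in all.

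Il17f was found more often in barcodes with Il17a. Of the lymphoid-like barcodes with Il17a, 29 of 147 (19.7%) and 19 of 167 (11.4%) also had Il17f. Of those without, 7 of 500 (1.4%) and 10 of 595 (1.68%) did. Median depths were alike (3498 and 3428 UMIs with Il17a, 3226 and 3387 without). This contrast pools classes that differ in both genes. Within the gamma-delta T-like class of the Cre- library, Il17f was at 88.2 CPM with Il17a and 6.38 CPM (1 UMI) without, and the interval of the ratio lay above 0. In the other library it was at 61.0 and 24.8 CPM, and the interval of the log2 ratio (-0.04 to 2.88) ran through 0. Of the lymphoid-like barcodes with Il17a, 89 and 105 had Trdc, and 33 and 28 of these also had Trac. Another 52 and 43 had Trac without Trdc, 5 and 7 of them gamma-delta T-like, and 6 and 19 had neither. Il17a thus lay in barcodes with Trdc and in barcodes with Trac but no Trdc in both kidneys. Trac without Trdc does not by itself name an alpha-beta T cell.

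Il23r lay mainly in gamma-delta T-like barcodes, which held 68 of its 110 UMIs (61.8%). It had 35 UMIs in 32 barcodes of the Cre- library (79.5 CPM) and 33 UMIs in 29 barcodes of the other (53.3 CPM), and 30 and 25 of these barcodes had a single UMI. The log2 ratio of -0.58 ran from -1.31 to 0.15, so a difference was not detectable at this depth. CD4 T-like barcodes held 6 and 4 UMIs, and CD8 T-like and type 2 innate lymphoid-like barcodes held 0. Within the gamma-delta T-like class, Il23r did not follow Il17a: it was at 63.5 CPM in barcodes with Il17a and 108 CPM in those without in the Cre- library, at 58.3 and 45.5 CPM in the other, and both intervals of the ratio ran through 0.

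Other genes of the type 17 programme differed by less than 2-fold between the libraries in gamma-delta T-like barcodes. Of the 14 listed genes, all 14 reached 10 UMIs in gamma-delta T-like barcodes, and 0 were at least 2-fold apart, where 11.2% of the 7535 genes of that depth were. Their median log2 ratio was 0.19, against 0.09 over all genes. The 4 with most CPM were Cxcr6, a homing receptor (1118 and 1255 CPM), Il7r, the interleukin 7 receptor (1068 and 1304 CPM), Icos, a costimulatory receptor (775 and 888 CPM), and Maf, a transcription factor (682 and 851 CPM), of which Il7r (log2 ratio 0.29, 0.12 to 0.46) and Maf (0.32, 0.11 to 0.53) had intervals clear of 0. Of the 7 members, 6 reached that depth in this class, and Areg alone was past 2-fold. In CD4 T-like barcodes 11 of the 14 reached it and Blk alone, a kinase known from gamma-delta T cells, was past 2-fold (4 and 18 UMIs), where 9.66% of 7928 genes were. Smaller differences with intervals clear of 0 included Icos (0.46, 0.27 to 0.65), Il7r (0.39, 0.18 to 0.59) and Maf (0.38, 0.16 to 0.59). There 6 members reached the depth and Il17a alone was past 2-fold.

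Of the other cytokines of the family, only Il22 reached 10 UMIs in gamma-delta T-like barcodes, with 1 and 9 UMIs. Il17b, Il17c, Il17d and Il25 did not.

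Il17ra was broad, with its highest levels in blood-derived myeloid cells. Monocyte-like barcodes stood at 246 CPM (335 UMIs) and 243 CPM (235 UMIs), and neutrophil-like barcodes at 214 CPM (265 UMIs) and 219 CPM (297 UMIs). The intervals of these 2 neighbours overlapped in each library (220 to 273 against 189 to 241 CPM in the Cre- library), and the log2 ratios between the libraries were -0.01 (-0.26 to 0.23) and 0.03 (-0.21 to 0.28). After thinning, 18% and 18.5% of neutrophil-like barcodes had Il17ra, against 1.01% and 1.11% of tubule-like barcodes.

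Below these came some macrophage clusters, lymphocytes and fibroblasts. Il17ra stood at 36.5 and 34.9 CPM in the macrophage-like cluster led by Gpnmb, at 36.4 and 48.5 CPM in gamma-delta T-like barcodes, and at 33.9 and 35 CPM in CD4 T-like barcodes. The largest macrophage-like cluster, led by Ccl8, was lower, at 11.1 and 13.4 CPM. Fibroblast-like barcodes (159 and 300) were at 36.1 CPM (70 UMIs) and 45.0 CPM (188 UMIs), a log2 ratio of 0.32 (-0.08 to 0.74). The Ccr2 macrophage-like cluster was higher in the library labelled PHDTiEC, at 27.3 CPM (167 UMIs) and 38 CPM (283 UMIs), with a log2 ratio of 0.48 (0.20 to 0.76).

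Tubule classes had low Il17ra. PT-like (proximal tubule) barcodes were at 16.4 and 15.4 CPM, injured PT-like at 9.71 and 11.8 CPM and CD-like (collecting duct) barcodes at 4.20 and 5.26 CPM. TAL-like (thick ascending limb) barcodes stood at 7.16 CPM (88 UMIs) and 10.8 CPM (145 UMIs), a log2 ratio of 0.59 (0.20 to 0.99). Barcodes under 100 UMIs had Il17ra at 17.4 and 13.6 CPM, above most tubule classes. The share of free RNA in tubule-like barcodes was not estimated, so its part in these levels is not known. Over all kept barcodes Il17ra was at 18.3 and 19.8 CPM (2165 and 2628 UMIs), a log2 ratio of 0.12 (0.03 to 0.20).

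Il17rc lay mainly in tubule-like barcodes, which also held most UMIs of all genes. Tubule-like barcodes held 81.6% of its 3918 UMIs. Of the UMIs of all genes they held 71882792 of 118320351 in the Cre- library and 78259780 of 132583769 in the other. Il17rc stood there at 20.6 CPM (1477 UMIs) and 22 CPM (1720 UMIs), a log2 ratio of 0.10 (-0.00 to 0.20). Barcodes under 100 UMIs were at 17.2 and 17.1 CPM. The highest level was in thin limb-like barcodes, at 37.6 CPM (32.4 to 43.4) and 39.1 CPM (33.6 to 45.3), and the next, in glomerular epithelial-like barcodes, at 35.2 and 36.2 CPM, did not differ from it beyond counting error. DCT-like (distal convoluted tubule), injured PT-like, TAL-like and CD-like barcodes followed, at 19 to 21.7 CPM in the Cre- library with overlapping intervals. PT-like barcodes were lower, at 11.8 CPM (9.79 to 14.0) and 12.2 CPM (10.4 to 14.2).

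Injured PT-like barcodes were the tubule class in which the Il17rc interval lay clear of 0, at 21.5 CPM (184 UMIs) and 27.6 CPM (220 UMIs), a log2 ratio of 0.36 (0.07 to 0.65). Fibroblast-like barcodes stood at 20.6 CPM (40 UMIs) and 15.1 CPM (63 UMIs), with a ratio of -0.45 from -1.05 to 0.16. Endothelial-like barcodes, the cells targeted by Cre, were at 13.6 CPM (39 UMIs) and 9.51 CPM (36 UMIs), from -1.21 to 0.18 on the log2 scale. In most leukocyte classes Il17rc was near absent: neutrophil-like barcodes held 1 and 0 UMIs, monocyte-like barcodes 0 and 1, and all 2521 and 2741 macrophage-like barcodes 19 and 12. Gamma-delta T-like barcodes stood at 2.27 CPM (0.0575 to 12.7) and 11.3 CPM (4.55 to 23.3). Barcodes under 100 UMIs had Il17rc at 17.2 and 17.1 CPM. The leukocyte levels and those of PT-like barcodes lay below this, although the gamma-delta T-like interval of the library labelled PHDTiEC took it in. The CD-like interval of the Cre- library (15.9 to 22.5 CPM) also took it in, whereas those of thin limb-like, injured PT-like, TAL-like and DCT-like barcodes lay above it. The fibroblast-like intervals (14.7 to 28.1 and 11.6 to 19.3 CPM) took it in as well. Free RNA was estimated at 9.03% and 13.5% of the UMIs of fibroblast-like barcodes, and its part in their Il17rc was not tested.

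The 2 chains of the IL-17 receptor therefore had their high levels in different cells of these kidneys. The classes with Il17ra over 200 CPM had at most 1 UMI of Il17rc per library. Fibroblast-like barcodes had UMIs of both chains. There Il17ra lay above its level in barcodes under 100 UMIs, whereas the Il17rc intervals took in the level of those barcodes, beside the share of free RNA given above.

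**Figure D3:**
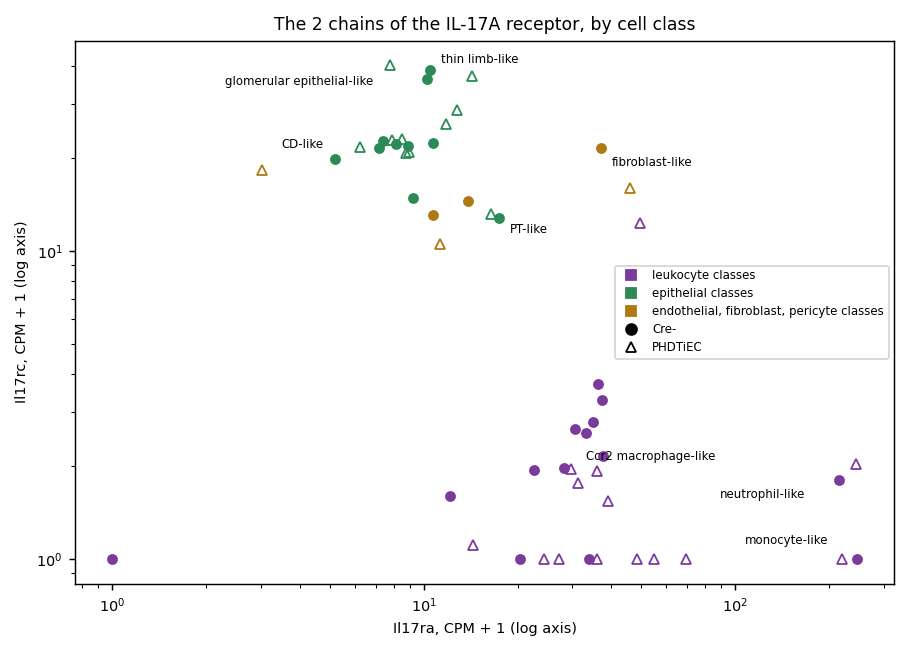
Il17ra against Il17rc (CPM plus 1, log axes), 1 point per named cell class and library. Monocyte-like and neutrophil-like classes lie at the right with almost no Il17rc, tubule classes lie at 12 to 39 CPM of Il17rc with little Il17ra, and fibroblast-like barcodes lie between.

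Il1r1 was found both in receiving classes and in the producing lymphocytes. Fibroblast-like barcodes had 42.3 CPM (82 UMIs) and 46.2 CPM (193 UMIs), CD-like barcodes 40.9 CPM (282 UMIs) and 41.8 CPM (310 UMIs), and intercalated-cell-like barcodes with collecting duct markers 40.2 CPM (725 UMIs) and 36.2 CPM (740 UMIs). These neighbours overlapped in the Cre- library. PT-like barcodes, at 1.04 and 0.888 CPM, and macrophage-like barcodes, at 0.672 and 0.860 CPM, lay below the 11.8 and 13.1 CPM of barcodes under 100 UMIs.

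Among lymphocytes, gamma-delta T-like barcodes led, with 70.4 CPM (31 UMIs) and 93.7 CPM (58 UMIs), a log2 ratio of 0.41 (-0.24 to 1.09). CD8 T-like, NK-like and type 2 innate lymphoid-like barcodes had 0 UMIs in both libraries. Over all lymphoid-like barcodes Il1r1 was higher in the library labelled PHDTiEC, at 15.7 CPM (46 UMIs) and 27.3 CPM (93 UMIs), with a log2 ratio of 0.80 (0.27 to 1.34), beside the larger share of gamma-delta T-like barcodes given above. It was found in 18.4% and 24.6% of lymphoid-like barcodes with Il17a, against 2.00% and 4.87% of those without. This contrast pools classes that differ in both genes. Within the gamma-delta T-like class of the Cre- library, Il1r1 was at 88.2 CPM in barcodes with Il17a and 38.3 CPM in those without. In the other library it was at 95.4 and 91.0 CPM, and both intervals of the ratio ran through 0.

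Tubule segments differed in opposite directions for Il1r1, a contrast that was not tested. DCT-like barcodes stood at 21.2 CPM (176 UMIs) and 15.9 CPM (151 UMIs), a log2 ratio of -0.42 (-0.74 to -0.10), and thin limb-like barcodes at 10.5 CPM (52 UMIs) and 15.8 CPM (72 UMIs), a log2 ratio of 0.60 (0.06 to 1.14). The first of the thin limb-like levels lay below that of barcodes under 100 UMIs (11.8 CPM). TAL-like barcodes were low, at 3.82 and 4.01 CPM. Over all kept barcodes Il1r1 was at 15.3 and 15.4 CPM.

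**Figure D4:**
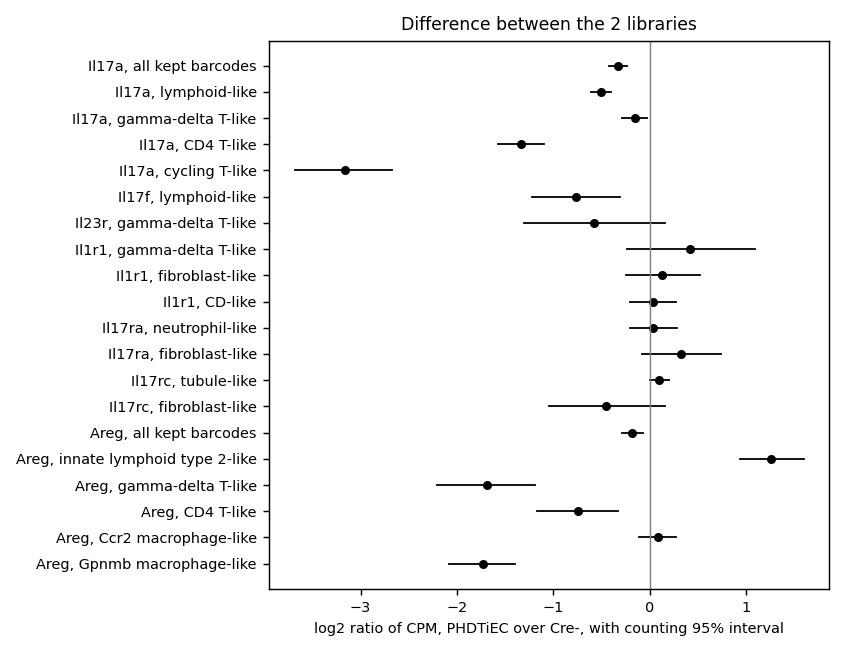
Log2 ratio of CPM (library labelled PHDTiEC over Cre-) for each member in the classes where it was counted, with 95% counting intervals, 1 mouse per genotype. Il17a in CD4 T-like (-1.33) and cycling T-like (-3.16) barcodes and Areg in gamma-delta T-like barcodes (-1.69) lie below 0, Areg in type 2 innate lymphoid-like barcodes (1.26) lies above, and the receptor genes lie on both sides of 0.

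Areg over all kept barcodes was at 12 CPM (1422 UMIs) in the Cre- library and 10.6 CPM (1404 UMIs) in the library labelled PHDTiEC, a log2 ratio of -0.18 (-0.29 to -0.08). Macrophage-like barcodes held 47.6% of its UMIs and lymphoid-like barcodes 31.0%. The classes behind this total differed in opposite directions.

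The highest level was in type 2 innate lymphoid-like barcodes, which were few, 16 and 14. They expressed all 5 type 2 markers, among them Gata3 and Il1rl1, the interleukin 33 receptor. Areg stood at 1816 CPM (111 UMIs, 1494 to 2187) and 4352 CPM (243 UMIs, 3822 to 4935), a log2 ratio of 1.26 (0.93 to 1.60), in 13 barcodes of each library. Their medians were 5 and 12 UMIs, 1 barcode held 39.6% and 28.0% of the UMIs, and without it the ratio was 1.53. Without this class the ratio over all kept barcodes was -0.34.

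T-like classes showed the opposite. Gamma-delta T-like barcodes were at 250 CPM (110 UMIs) and 77.5 CPM (48 UMIs), a log2 ratio of -1.69 (-2.21 to -1.19), but in the Cre- library 1 barcode held 39.1% of the UMIs, and without the richest of each the ratio was -1.28. The barcodes with Areg were 21 of 124 and 20 of 191. CD4 T-like barcodes were at 195 CPM (109 UMIs) and 116 CPM (86 UMIs), a log2 ratio of -0.75 (-1.17 to -0.33). CD8 T-like barcodes had 0 UMIs in both libraries.

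Areg and Il17a often shared a barcode. Of lymphoid-like barcodes with Il17a, 32 (21.8%) and 34 (20.4%) had Areg, against 43 (8.60%) and 46 (7.73%) of those without. Within the gamma-delta T-like class Areg was at 342 CPM in barcodes with Il17a and 82.9 CPM in those without in the Cre- library, and at 98.1 and 45.5 CPM in the other. The direction was the same in both kidneys, and both intervals of this ratio lay above 0.

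**Figure D5:**
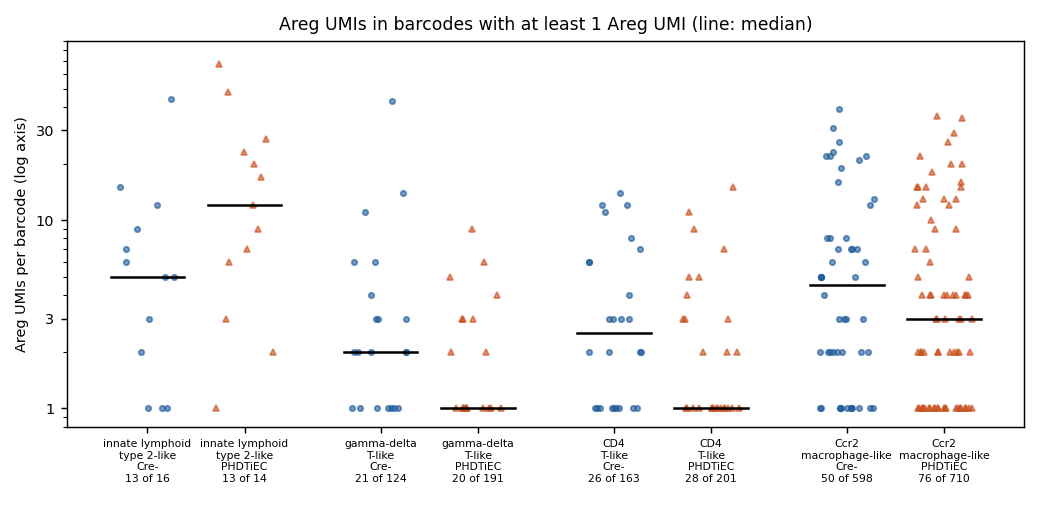
Areg UMIs in each barcode that had any (log axis), by class and library, 1 point per barcode, with the median marked. Type 2 innate lymphoid-like barcodes have medians of 5 and 12 UMIs. The medians are 2 and 1 in gamma-delta T-like, 2.5 and 1 in CD4 T-like and 4.5 and 3 in Ccr2 macrophage-like barcodes.

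Among macrophages, Areg was highest in the cluster named here for Ccr2, a receptor of recently recruited cells, although Tnip3, Lyz1 and Dpep2 led it. That cluster had 64.4 CPM (394 UMIs) and 68.0 CPM (506 UMIs), a log2 ratio of 0.08 (-0.11 to 0.27), in 50 of 598 and 76 of 710 barcodes. The Gpnmb macrophage-like cluster was at 43.4 CPM (260 UMIs) and 13 CPM (98 UMIs), a log2 ratio of -1.74 (-2.09 to -1.4), and of -1.70 without the richest barcode of each library. The largest cluster, led by Ccl8, was low, at 5.87 and 4.04 CPM.

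Smaller myeloid classes differed in direction. Dendritic-like barcodes had 8.44 CPM (18 UMIs) and 19.6 CPM (51 UMIs), a log2 ratio of 1.21 (0.41 to 2.08), and cycling macrophage-like barcodes 4.38 CPM (14 UMIs) and 17.2 CPM (54 UMIs), a log2 ratio of 1.98 (1.11 to 2.94). Monocyte-like barcodes had 30.1 CPM (41 UMIs) and 17.6 CPM (17 UMIs), a log2 ratio of -0.77 (-1.68 to 0.07), and neutrophil-like barcodes 7 and 3 UMIs. Barcodes under 100 UMIs had Areg at 10.2 and 7.72 CPM, and the Cre- levels of the dendritic-like and cycling macrophage-like classes lay below this. In CD-like barcodes 7 and 67 UMIs were found, of which 63 lay in 1 barcode of the library labelled PHDTiEC. Endothelial-like barcodes had 1 and 2 UMIs.

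Macrophage-like barcodes with Areg were deeper (medians of 12844 and 12977 UMIs) than those without (6497 and 6983). Within the Ccr2 cluster, where the depths were closer (11998 and 12470 against 9650 and 9623 UMIs), barcodes with Areg had more Il1a (227 against 74.6 CPM in the Cre- library, 221 against 50.8 CPM in the other), more Il1b (3602 against 1621, and 3013 against 1253 CPM) and more Retnla, a gene of alternatively activated macrophages (3801 against 1703, and 3279 against 1478 CPM). Stress and immediate early genes were mixed. Hspa1a, a heat shock gene, was lower in them (37.8 against 81.5, and 27.8 against 77.7 CPM), as was Jun (406 against 727, and 476 against 707 CPM), whereas Nr4a1 (505 against 194, and 378 against 153 CPM) and Dusp1 (1087 against 795, and 1207 against 919 CPM) were higher. Atf3 (898 against 861, and 1074 against 886 CPM) and Egr1 (490 against 491, and 525 against 397 CPM) were closer. These genes were picked after their values had been seen, and the part of depth in the differences was not tested.

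Genes of the signals that induce type 17 lymphocytes were read in macrophage-like, dendritic-like and fibroblast-like barcodes. Of 10 listed genes, all 10 reached 10 UMIs in macrophage-like barcodes and 0 were at least 2-fold apart (4.80% of 14452 genes were), with a median log2 ratio of -0.25 against 0.03 over all genes. Il1b, the interleukin 1 beta gene, stood at 1753 and 1512 CPM, and Tgfb1 at 224 and 222 CPM. Il23a, the interleukin 23 subunit gene, was highest in neutrophil-like barcodes, at 110 CPM (136 UMIs) and 98.7 CPM (134 UMIs). In dendritic-like barcodes 8 of the 10 reached the depth, and Il12b, the subunit that interleukins 12 and 23 share, alone was past 2-fold (7.49% of genes were), at 258 CPM (549 UMIs) and 33.8 CPM (88 UMIs), with 16% and 23.9% of the UMIs in 1 barcode. In fibroblast-like barcodes 8 also reached the depth, and Il1a alone was past 2-fold (23 and 13 UMIs), where 8.55% of genes were. Il6 was higher there, at 33.5 and 30.4 CPM, than in macrophage-like barcodes (6.96 and 5.61 CPM), and Tgfb1 was at 246 and 242 CPM.

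Genes that answer IL-17 were read in 3 receiving classes from a list of 19. In injured PT-like barcodes 17 reached 10 UMIs, with a median log2 ratio of -0.36 against 0.07 over all genes. Mmp3 (0 and 26 UMIs) and Csf3 (13 and 4 UMIs) were past 2-fold, 2 of 17 where 6.52% of all genes were. Fibroblast markers summed to 20.0 and 76.2 CPM in this class and endothelial markers to 59.3 and 136 CPM, and their part in these values was not tested. The neutrophil chemokine genes Cxcl1 (709 and 512 CPM) and Cxcl2 (664 and 509 CPM) had the most CPM there, and Lcn2, which encodes lipocalin 2, was at 367 and 359 CPM.

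Of the same list, 16 reached 10 UMIs in CD-like barcodes and the median log2 ratio was 0.06 against 0.04 over all genes. Ccl7 (15 and 76 UMIs) and Saa3 (7 and 43 UMIs, 69.8% of the latter in 1 barcode) were past 2-fold, where 5.98% of genes were. Fibroblast markers summed to 5.80 and 84.8 CPM there, and their part was not tested. Lcn2 reached 4337 and 4715 CPM there, its highest among the 3 classes. In fibroblast-like barcodes, with 16 of 19 at 10 UMIs, Ccl20, Ccl7, Csf3 and Saa3 were past 2-fold higher and Cxcl5 lower, 5 of 16 where 8.55% of genes were, and the median was -0.04 against 0.06. Ccl7, a monocyte chemokine gene, had 8 and 98 UMIs in that class, with 62.5% and 32.7% in 1 barcode, and the other 3 had 21 UMIs or fewer per library. Fibroblast-like barcodes also held macrophage markers, all 8 of the list, at a summed 934 and 1034 CPM, and their part in these values was not tested.

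Further receptors and adaptors of the IL-17 family were seldom far apart. In fibroblast-like barcodes 4 of 5 reached 10 UMIs and in injured PT-like barcodes 5 of 5, with 0 at least 2-fold apart (8.55% and 6.52% of all genes were). Il17rd, a receptor chain that modulates the pathway, was at 26 CPM (222 UMIs) and 18.5 CPM (147 UMIs) in injured PT-like barcodes, a log2 ratio of -0.49 (-0.80 to -0.18). In CD-like barcodes Il17rb, the receptor chain for IL-25, was the exception, at 10.7 CPM (74 UMIs) and 4.85 CPM (36 UMIs). Il17re, the receptor chain for IL-17C, stood at 82.9 CPM (572 UMIs) and 105 CPM (776 UMIs) in that class, a log2 ratio of 0.34 (0.18 to 0.49).

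The receptor of amphiregulin was present in the receiving classes. Egfr was at 33.0 and 48.6 CPM in fibroblast-like, 45.6 and 62.2 CPM in injured PT-like and 24.6 and 30.6 CPM in CD-like barcodes, and thin limb-like barcodes were at 44.5 and 65.0 CPM. Of 8 EGF receptors and sheddases, all 8 reached 10 UMIs in the 3 receiving classes and 0 were at least 2-fold apart, where 8.55%, 6.52% and 5.98% of all genes were. Of the 6 other EGF family ligands, Hbegf (heparin-binding EGF) was at 266 and 247 CPM in injured PT-like, 349 and 356 CPM in CD-like and 896 and 1146 CPM in TAL-like barcodes, whereas macrophage-like barcodes had 20.2 and 17.8 CPM. Egf alone was past 2-fold in injured PT-like barcodes (8 and 22 UMIs).

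The genes whose levels ran most like each member over the 37 cell classes, both libraries pooled, were found by Pearson's r of log2(CPM + 1). The classes differ in depth and share the same libraries and free RNA, and r is a description. Il17a ran with Ly6g5b (0.91), Trdc (0.91) and Cd163l1 (0.88), the last a scavenger receptor gene of gamma-delta T cells. Il17f ran with Prr29 (0.91), Ccr4 (0.85) and Il23r (0.84), and Il23r with Ccr4 (0.90), 5830411N06Rik (0.89) and Prr29 (0.85). Il17ra ran with Tmem156 (0.88), Mirt1 (0.86) and Cdk2ap2 (0.83), and Il17rc with Rhobtb3, Fat1 and Cep126 (0.92 each). Il1r1 ran with Flywch2 (0.80), Apbb1 (0.79) and Armcx4 (0.79), and Areg with Nfkb1 (0.81), Ltb4r1 (0.80) and Spty2d1 (0.78).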

How the data were processed

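The authors deposited whole-number UMI counts per gene and barcode from Cell Ranger 4 on mm10 (tool and build per the labels), unfiltered and unnormalised, for 1 library per genotype. Depth was 136004367 and 146758812 UMIs. Barcodes were kept with 500 to 100000 UMIs, at least 200 genes and at most 50% mitochondrial UMIs. The members and the pathway lists were chosen with earlier results of these data known. In Seurat 5.3.0 (R 4.3.3), counts were normalised to 10000 per barcode and clustered on 1966 variable genes without members or list genes, with 20 principal components at resolution 0.8, and lymphoid-like clusters were clustered again. Classes were named from fixed marker lists with the clusters in view, and those without clear markers kept a number.

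UMIs were summed per class and library in Python 3.11.15, with exact Poisson, Clopper-Pearson and binomial-split intervals at 95% from scipy 1.17.1. The log2 ratios with their intervals, and the ranking of like genes, were run on simulated counts. Those counts were drawn independently, so the run could not check the intervals where UMIs gather in few barcodes. A count of 0 was bounded with 3 counts. Shares were also computed after thinning to 1000 UMIs. No doublets were removed. Scrublet's own threshold marked 0 barcodes in both libraries and did not work here, so the 5% of barcodes with the highest scores were left out instead, an alternative chosen after seeing the data. Named genes were the 7 members, the 4 genes of each list with the highest CPM in a class, those at least 2-fold apart with at least 10 UMIs over both libraries, and for each member the 3 genes with the highest Pearson r over classes, among genes with at least 100 UMIs and without mitochondrial genes. Promoter sequence was matched for 6 of the 7 members. edgeR 4.0.16 gave TMM factors as an alternative scaling.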

Additional observations from a re-analysis of the deposited data

Results flagged for a closer look

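Il1r1 differed in opposite directions between tubule segments. Its log2 ratio (PHDTiEC over Cre-) was -0.42 in DCT-like barcodes and 0.60 in thin limb-like barcodes, each with a counting interval clear of 0, while TAL-like barcodes were at 3.82 and 4.01 CPM. The thin limb-like level of the Cre- library, 10.5 CPM, lay below the 11.8 CPM of Il1r1 in barcodes under 100 UMIs. Each segment comes from 1 library per genotype, and the difference between the segments was not tested.

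Areg also pointed both ways, at a log2 ratio of -2.64 in intercalated-cell-like barcodes with collecting duct markers and of 1.98 in cycling macrophage-like barcodes. In the first class 22 of the 44 UMIs of the Cre- library lay in 1 barcode, against 8 UMIs in all in the other library. In the second, the UMIs were 14 in 6 barcodes and 54 in 12 barcodes. Both levels of the first class (2.44 and 0.391 CPM) and the Cre- level of the second (4.38 CPM) lay below those of Areg in barcodes under 100 UMIs (10.2 and 7.72 CPM). This difference was not tested either.

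Il17a was also found among barcodes with fewer than 100 UMIs, which no comparison used, with 47 UMIs for Cre- and 71 for PHDTiEC. This is 9.74 CPM (7.16 to 13) and 11.7 CPM (9.11 to 14.7), above the limit that a count of 0 allows, whereas Il17f had 0 and 2 UMIs there and Il23r 0 and 1.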

How the results depend on the processing

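Only some log2 ratios were put through the alternatives. For Il17a they were those of lymphoid-like, gamma-delta, CD4 and cycling T-like barcodes. For Areg they were those of all kept, gamma-delta T-like, type 2 innate lymphoid-like, macrophage-like and Gpnmb macrophage-like barcodes. The rest were Il17ra and Il1r1 in fibroblast-like and Il17rc in tubule-like barcodes. None of these changed sign, and the other log2 ratios were not rerun. The Il17a ratio of gamma-delta T-like barcodes ran through 0 without the richest barcode of each library (-0.08, -0.22 to 0.06) and without the barcodes present in both libraries (-0.11, -0.25 to 0.02). The Il17a ratio in lymphoid-like barcodes was -0.31 as a mean over barcodes, and the Areg ratio over all kept barcodes was -0.34 without type 2 innate lymphoid-like barcodes, an alternative chosen after seeing the data, as were leaving out shared barcodes, lymphoid subclusters 5 and 11 and the barcodes with the highest doublet scores. The Areg ratio in macrophage-like barcodes was -0.14 as a mean over barcodes. At resolution 0.4, 85.1% of Il17a UMIs lay in lymphoid-like barcodes. Thinning to 500 or 2000 UMIs moved the shares with the depth: Il17a in gamma-delta T-like barcodes to 37.9% or 59.6% (Cre-) and 33.0% or 53.4% (PHDTiEC), Il17rc in tubule-like barcodes to 1.08% or 4.95% and 1.10% or 4.19%, and Il17ra in neutrophil-like barcodes to 9.44% or 29.9% and 10.1% or 23.7%. For Il17rc and Il17ra the order of the libraries at 2000 UMIs was opposite to that at 1000. With no count minimum, 2 type 17 induction genes in fibroblast-like and 1 EGF family ligand in macrophage-like barcodes were at least 2-fold apart. Of the 3 genes most like each member, at least 500 UMIs kept 1 for Il17a and 0 for Il17f and Il23r, and Spearman's rho kept 1 for Il17f, Il17ra, Il1r1 and Areg and 0 for Il23r and Il17rc. The causes were not tested. Another 152 values stayed within their counting interval or, for counts of genes, near the reported count. No paired analysis was possible because each genotype has 1 library, and for the same reason no replicate could be left out. Rare genes limit what can be read: Il23r had 110 UMIs and Il17f 194 in all, and a difference between 2 mice is not one between genotypes.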
